A study of Mus musculus with 8 samples.

Results

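*Ctcfl*, *Taf9b*, *Taf7l* and *Hsf5* are paralogues of general regulators of transcription, and in *L3mbtl2*-KD ESCs they were measured beside their broadly expressed relatives *Ctcf*, *Taf9*, *Taf7*, *Hsf1* and *Hsf2*. These 9 genes, of 19751 genes with a named probe on the array, were selected on the values of the same comparison that is described here. Their changes are therefore given as a description, with no test. The probes were assigned to genes through their RefSeq accession, which gave 1 probe for each gene except *Taf7*, which had 2.

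CTCF is a zinc finger protein that binds DNA throughout the genome and, together with cohesin, marks the ends of chromatin loops. CTCFL, also called BORIS, carries a closely similar zinc finger region and is known from male germ cells. TAF9 and TAF7 are subunits of TFIID, the complex that binds core promoters with TBP, and TAF9 is also part of the SAGA coactivator. TAF9B can take the place of TAF9 in both complexes and has also been described in neurons, whereas TAF7L is an X-linked form of TAF7 known from spermatogenesis. HSF1 drives the heat shock response, HSF2 acts in development and gametogenesis, and HSF5 is a member of the same family with a role in male meiosis.

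The data came from VV3 ESCs, a mouse line grown on STO feeder cells, in which the *Vasa* (*Ddx4*) gene drives a Venus reporter. Cells transfected with siRNA against *L3mbtl2*, which encodes a subunit of the PCGF6-PRC1 repressor complex, were compared with cells transfected with the non-silencing AllStars siRNA, in 4 biological replicates each, with 1 Agilent array per sample. By the methods, *Vasa*-positive cells were isolated by FACS after *L3mbtl2* siRNA, and a sort of the control cells is not clearly stated, so the siRNA and the sort cannot be told apart. Replicates 1 and 2 of both groups lay on slide 1 and replicates 3 and 4 on slide 2, and the groups always took different positions on a slide, so position and siRNA cannot be told apart either. Values are log2 of the background-subtracted intensity minus the 75th percentile of the array. That percentile was 854 to 1024 in control ESCs and 791 to 1038 in *L3mbtl2*-KD ESCs, and 62.0 to 66.6% and 59.5 to 63.9% of spots were well above background. The number of arrays limits the precision.

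The siRNA target was measured first. The log2 intensity of *L3mbtl2* was 0.27, -0.18, -0.21 and -0.31 in control replicates 1 to 4 and -1.45, -1.26, -1.58 and -1.73 in *L3mbtl2*-KD replicates 1 to 4. Every *L3mbtl2*-KD sample lay below every control sample, with a log2 fold change of -1.40 (standard error 0.15, n = 4 each; exact permutation p = 0.0286, two-sided, and no smaller value is possible with 4 against 4 arrays), which leaves 37.9% of the control intensity. *Ddx4*, the gene of the reporter, was at 0.86, 0.99, 0.99 and 0.85 in control ESCs and at 3.87, 3.62, 3.70 and 3.82 in *L3mbtl2*-KD ESCs. The groups did not overlap, in a gene whose reporter was used for the sort, and the change was 7.11-fold (log2 fold change 2.83, standard error 0.087, exact permutation p = 0.0286). The sort selected on the reporter of this gene, so nothing is read from its p.

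All 10 probes of the 9 genes were well above background on all 8 arrays, control arrays included. *Ctcfl*, *Taf9b*, *Taf7l* and *Hsf5*, named the 4 germ-line paralogues here, were thus measurable in control ESCs. For *Taf9b* this name does not mean expression limited to the germ line, since it has also been described in neurons. A gene was called if any of its probes passed both a 2-fold change and an adjusted p of 0.05. By this rule 4 of the 4 germ-line paralogues were higher in *L3mbtl2*-KD ESCs, where 2.49% of the 13653 genes tested were called higher and 3.21% lower. The paralogues were selected on this contrast, and nothing is read from that count. The 2 shares hold for this rule alone, so nothing is read from later counts at an unadjusted p or at any size of change. None of the 5 relatives changed more than 2-fold, and their log2 fold changes lay between -0.27 (*Hsf2*) and 0.29 (*Taf7*). In bulk RNA, more cells that express a gene and more RNA per cell cannot be told apart.

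**Figure D1:**
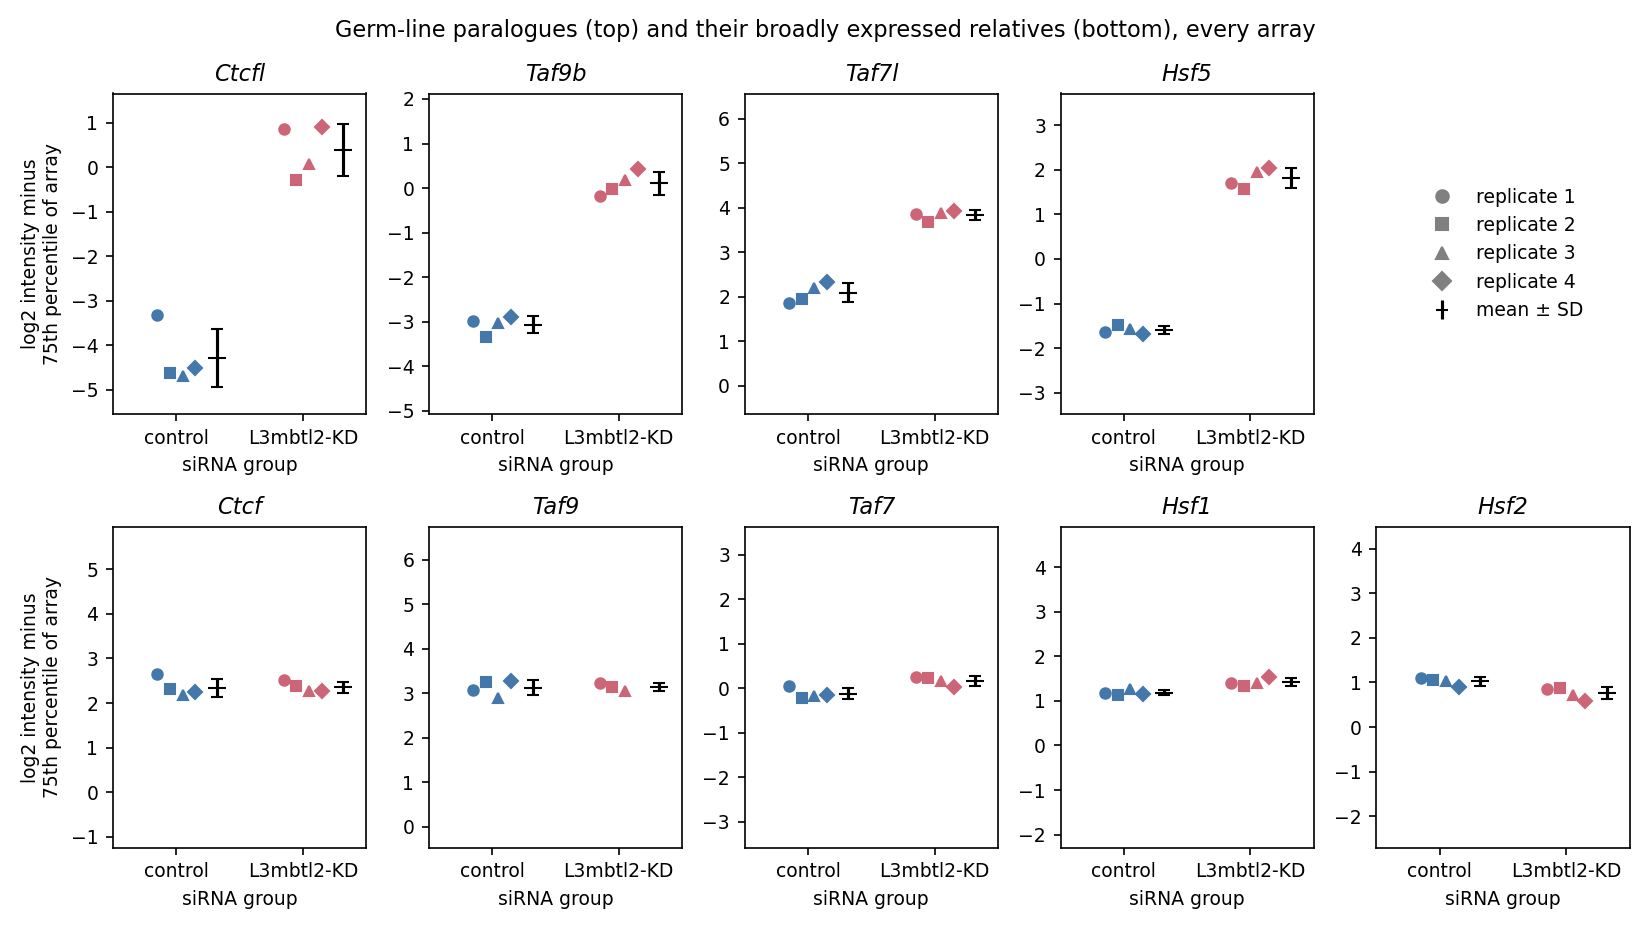
Normalized log2 intensity of the 4 germ-line paralogues (top row) and the 5 relatives (bottom row) in each array, with 1 marker shape per replicate and the mean ± SD of each group; every panel spans the same range on the log2 scale, and the level of one gene cannot be set against that of another. The groups are far apart in the top row and close together in the bottom row, and *Taf9* has 3 values in *L3mbtl2*-KD ESCs.

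*Ctcfl* changed most among the 9 genes. Its log2 intensity was -3.32, -4.61, -4.68 and -4.51 in control replicates 1 to 4 and 0.86, -0.29, 0.08 and 0.90 in *L3mbtl2*-KD replicates 1 to 4. The lowest *L3mbtl2*-KD sample lay 3.04 above the highest control sample, which was replicate 1 and stood apart from the other control samples. The log2 fold change was 4.67 (standard error 0.37, n = 4 each), or 25.5-fold. On the scanner's own scale the intensity was 34.9 to 87.1 in control ESCs and 648 to 1730 in *L3mbtl2*-KD ESCs, so the control values were low although above background. Normexp background correction, with its offset of 50 on all spots, gave a log2 fold change of 3.44 for *Ctcfl*. It was 4.25 within slide 1, which holds the control sample that stood apart, and 5.09 within slide 2.

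*Ctcf* was alike in both groups. Its log2 intensity was 2.64, 2.32, 2.18 and 2.24 in control ESCs and 2.52, 2.38, 2.26 and 2.26 in *L3mbtl2*-KD ESCs. The *L3mbtl2*-KD samples lay inside the range of the control samples, with a log2 fold change of 0.01 (standard error 0.12, n = 4 each), and replicate 1 was the highest sample of both groups. The change of *Ctcfl* thus exceeded that of *Ctcf* by 4.66 on the log2 scale (standard error 0.37). The files used here hold no probe sequences, and whether each probe separates a paralogue from its relative was not tested.

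*Taf9b* and *Taf9*, the first pair of TFIID subunits, differed in the same way. *Taf9b* was at -2.98, -3.34, -3.03 and -2.90 in control ESCs and at -0.17, -0.01, 0.19 and 0.42 in *L3mbtl2*-KD ESCs. The gap between the nearest samples of the groups was 2.73, much wider than the SD of 0.19 in control and 0.26 in *L3mbtl2*-KD ESCs. The log2 fold change was 3.17 (standard error 0.15, n = 4 each), or 9.01-fold, and it was 3.07 within slide 1 and 3.27 within slide 2. With normexp background correction it was 2.54. *Taf9* was at 3.08, 3.26, 2.90 and 3.27 in control ESCs and at 3.22, 3.14 and 3.05 in *L3mbtl2*-KD replicates 1 to 3, while the spot of replicate 4 had an outlier flag and was left out. All 3 remaining *L3mbtl2*-KD values fell inside the range of the control samples, and the log2 fold change was 0.01 (standard error 0.12, n = 4 and 3). Over the 7 arrays with a value for both genes, the change of *Taf9b* exceeded that of *Taf9* by 3.06 (standard error 0.21).

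*Taf7l* had the smallest change of the 4 germ-line paralogues. It was at 1.87, 1.95, 2.21 and 2.33 in control ESCs and at 3.86, 3.68, 3.88 and 3.93 in *L3mbtl2*-KD ESCs. The samples of the *L3mbtl2*-KD group were close together, and the lowest lay 1.35 above the highest control sample. The log2 fold change was 1.75 (standard error 0.12, n = 4 each), or 3.36-fold, with 1.87 within slide 1 and 1.63 within slide 2. The scanner intensity of *Taf7l* was 3180 to 4800 in control ESCs and 10200 to 15300 in *L3mbtl2*-KD ESCs, far from background in both groups.

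*Taf7* was covered by 2 probes. The brighter probe was at 0.05, -0.22, -0.18 and -0.16 in control ESCs and at 0.25, 0.22, 0.16 and 0.02 in *L3mbtl2*-KD ESCs. Here 3 of the 4 *L3mbtl2*-KD samples lay above all control samples, and replicate 4 lay below control replicate 1. The log2 fold change was 0.29 (standard error 0.094, n = 4 each) with the brighter and 0.20 (standard error 0.15, n = 4 each) with the dimmer probe, whose groups overlapped too. The change of *Taf7l* exceeded that of *Taf7* on the brighter probe by 1.46 (standard error 0.18), the smallest such difference of the 5 pairs compared.

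*Hsf5* was the most even of the 4 germ-line paralogues within control ESCs. It was at -1.63, -1.48, -1.57 and -1.69 in control ESCs and at 1.71, 1.57, 1.96 and 2.04 in *L3mbtl2*-KD ESCs. The control samples had an SD of 0.09, and the groups were 3.05 apart at their nearest samples. The log2 fold change was 3.41 (standard error 0.12, n = 4 each), and 3.12 with normexp background correction. Within slide 1 it was 3.20 and within slide 2 it was 3.63.

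The 2 relatives of *Hsf5* moved little and in opposite directions. *Hsf1* was at 1.17, 1.13, 1.27 and 1.16 in control ESCs and at 1.40, 1.34, 1.41 and 1.54 in *L3mbtl2*-KD ESCs, 0.24 higher on average (standard error 0.079, n = 4 each). *Hsf2* was at 1.11, 1.06, 1.03 and 0.89 in control ESCs and at 0.85, 0.87, 0.72 and 0.58 in *L3mbtl2*-KD ESCs, with a change of -0.27 on average (standard error 0.096, n = 4 each). For both genes the groups were apart by a narrow margin, 0.07 for *Hsf1* and 0.02 for *Hsf2*. The change of *Hsf5* exceeded that of *Hsf1* by 3.17 (standard error 0.094) and that of *Hsf2* by 3.68 (standard error 0.18).

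**Figure D2:**
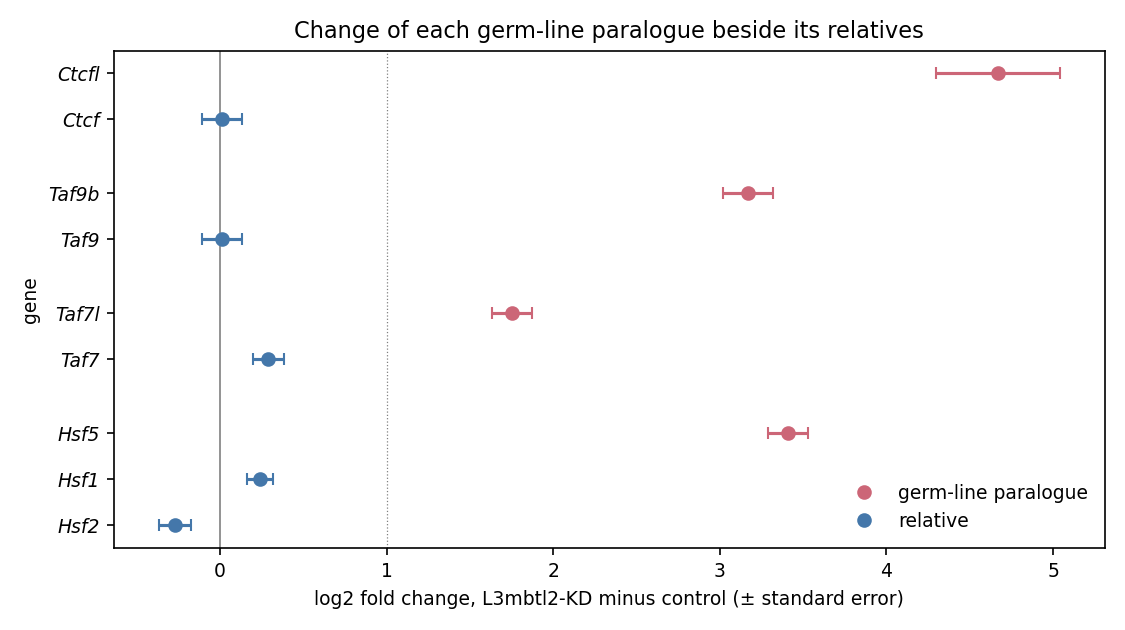
Log2 fold change (*L3mbtl2*-KD minus control) of each germ-line paralogue and of its relatives, with bars of 1 standard error and a dotted line at a 2-fold rise. The 4 germ-line paralogues lie between 1.75 and 4.67, and the 5 relatives lie between -0.27 and 0.29.

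By size of change the order was *Ctcfl*, *Hsf5*, *Taf9b* and *Taf7l*. The changes of *Hsf5* and *Taf9b* lay close together beside their standard errors of 0.12 and 0.15, and with normexp background correction *Ctcfl* (3.44) and *Hsf5* (3.12) came close to each other. *Taf7l* had the smallest change under each of the 18 alternative ways of processing that gave log2 values. Among the 13653 genes tested, *Ctcfl* ranked 5, *Hsf5* 13, *Taf9b* 16 and *Taf7l* 143 by fitted rise. The paralogues were selected on this contrast, so the ranks are a description only. The genes ranked include some that no control array had above background, such as *Spaca1* and *Xlr*, so the exact ranks are uncertain.

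The same-numbered samples of the groups were also compared. From pair 1 to pair 4, the difference was 4.18, 4.33, 4.77 and 5.41 for *Ctcfl*, and 1.99, 1.74, 1.67 and 1.60 for *Taf7l*. The pair with the smallest difference for *Ctcfl* thus had the largest for *Taf7l*. The differences ran from 2.81 to 3.33 for *Taf9b* and from 3.05 to 3.73 for *Hsf5*. All of them exceeded those of the relatives. The latter lay between -0.12 and 0.08 for *Ctcf* and between -0.11 and 0.15 for *Taf9*. They lay between 0.15 and 0.38 for *Hsf1* and between -0.31 and -0.19 for *Hsf2*. For *Taf7* they lay between 0.18 and 0.44 on the brighter probe, higher in every pair, and between -0.30 and 0.50 on the dimmer probe.

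The complex of L3MBTL2 is known to reach promoters through MAX and MGA, which bind E-box and T-box sequences, and through E2F6. RefSeq (GRCm38.p6) gave promoter windows of 300 bases, from 250 before to 50 after the start site, for 6 of the 9 genes, namely *Taf9b*, *Taf7l*, *Hsf5*, *Ctcf*, *Taf9* and *Hsf2*. The windows of the 3 germ-line paralogues and of *Hsf2*, a relative with little change, are shown because they allow the motif content of genes with a large and a small change to be compared. Each is printed 5′ to 3′ on its own strand, and capitals mark a match to the E-box (CACGTG, the same on both strands) or to the E2F motif (GCGGGA, or TCCCGC on the other strand). No matches overlapped, and *Taf9b* has a second start site whose window is not printed.
*Taf9b*, chrX:106221109-106221408, minus strand: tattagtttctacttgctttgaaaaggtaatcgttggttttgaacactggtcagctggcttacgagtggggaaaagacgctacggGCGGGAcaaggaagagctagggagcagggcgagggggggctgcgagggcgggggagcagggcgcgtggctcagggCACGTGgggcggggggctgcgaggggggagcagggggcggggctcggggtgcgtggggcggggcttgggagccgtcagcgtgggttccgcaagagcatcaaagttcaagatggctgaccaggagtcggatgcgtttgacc
*Taf7l*, chrX:134476441-134476740, minus strand: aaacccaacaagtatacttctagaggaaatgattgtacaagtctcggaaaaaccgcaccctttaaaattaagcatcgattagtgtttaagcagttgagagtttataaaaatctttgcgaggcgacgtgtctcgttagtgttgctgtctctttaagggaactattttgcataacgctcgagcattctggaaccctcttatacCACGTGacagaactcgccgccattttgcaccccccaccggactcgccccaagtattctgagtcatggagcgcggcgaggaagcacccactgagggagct
*Hsf5*, chr11:87616914-87617213, plus strand: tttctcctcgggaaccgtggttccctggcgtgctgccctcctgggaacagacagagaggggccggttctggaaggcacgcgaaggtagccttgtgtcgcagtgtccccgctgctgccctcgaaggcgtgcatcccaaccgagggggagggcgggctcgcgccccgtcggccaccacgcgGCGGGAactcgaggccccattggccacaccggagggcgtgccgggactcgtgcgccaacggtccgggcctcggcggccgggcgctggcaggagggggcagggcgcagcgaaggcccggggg
*Hsf2*, chr10:57486135-57486434, plus strand: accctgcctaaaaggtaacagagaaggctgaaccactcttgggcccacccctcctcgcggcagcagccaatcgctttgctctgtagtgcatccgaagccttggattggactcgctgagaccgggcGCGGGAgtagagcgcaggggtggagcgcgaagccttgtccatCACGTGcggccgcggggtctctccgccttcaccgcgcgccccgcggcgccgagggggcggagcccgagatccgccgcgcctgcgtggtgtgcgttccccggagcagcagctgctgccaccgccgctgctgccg
The E-box was found in the windows of *Taf9b* and *Taf7l*, with its first letter 90 and 49 bases before the start site, and in that of *Hsf2*, 83 bases before it. Of all 32851 promoter windows of this length, 7.15% hold an E-box. The E2F motif was found in *Taf9b*, *Hsf5* and *Hsf2*, 165, 71 and 125 bases before the start site, and in the window of *Ctcf*, while 20% of all windows hold it. The T-box motif AGGTGTGA (TCACACCT on the other strand), held by 1.28% of all windows, was in none of the 8 windows of these 6 genes. Neither window of *Taf9* and not the second window of *Taf9b* had any of these motifs. Among the relatives with a window, only *Hsf2*, whose change was small, carried both motifs that *Taf9b* carried. Whether these motifs bear on the changes was not tested. A match is a description, and whether the complex binds there was not tested. *Hsf5* had 34 CpG sites and 73.3% GC in its window, *Taf9b* 22 and 64.0% in its first and 16 and 56.7% in its second window, and *Taf7l* 17 and 47.0%, against a median of 7 CpG sites and 52.7% GC over all windows. The relatives had as many CpG sites or more, with 47 in *Ctcf*, 37 and 44 in the windows of *Taf9* and 34 in *Hsf2*, so a high number of CpG sites is not particular to the paralogues.

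The genes next to the paralogues on their chromosomes were not called. The nearest 2 named genes with a tested probe on each side of the 4 germ-line paralogues made 16 neighbours, and limma called 0 of them in either direction, which is near the shares of 2.49% and 3.21% over all genes. Their log2 fold changes lay between -0.78 (*Fndc3c1*, beside *Taf9b*) and 0.21 (*Tspoap1*, near *Hsf5*). At an unadjusted p under 0.05 and any size of change there were 4. This count has no share over all genes beside it, and nothing is read from it. A one-way test, the kind named in the study's figure legends, called 0 past 2-fold with or without adjustment. *Rae1*, near *Ctcfl*, was the only neighbour at an adjusted p under 0.05 in limma (log2 fold change -0.30, standard error 0.081, adjusted p = 0.036, lower in 4 of 4 samples). *Ctcfl* lay between *Rbm38* (0.06) and *Zbp1* (-0.38), *Taf9b* between *Pgk1* (-0.12) and *Fndc3c1*, *Taf7l* between *Drp2* (-0.17) and *Timm8a1* (-0.06), and *Hsf5* between *Mtmr4* (-0.31) and *Rnf43* (-0.72), none of them called.

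**Figure D3:**
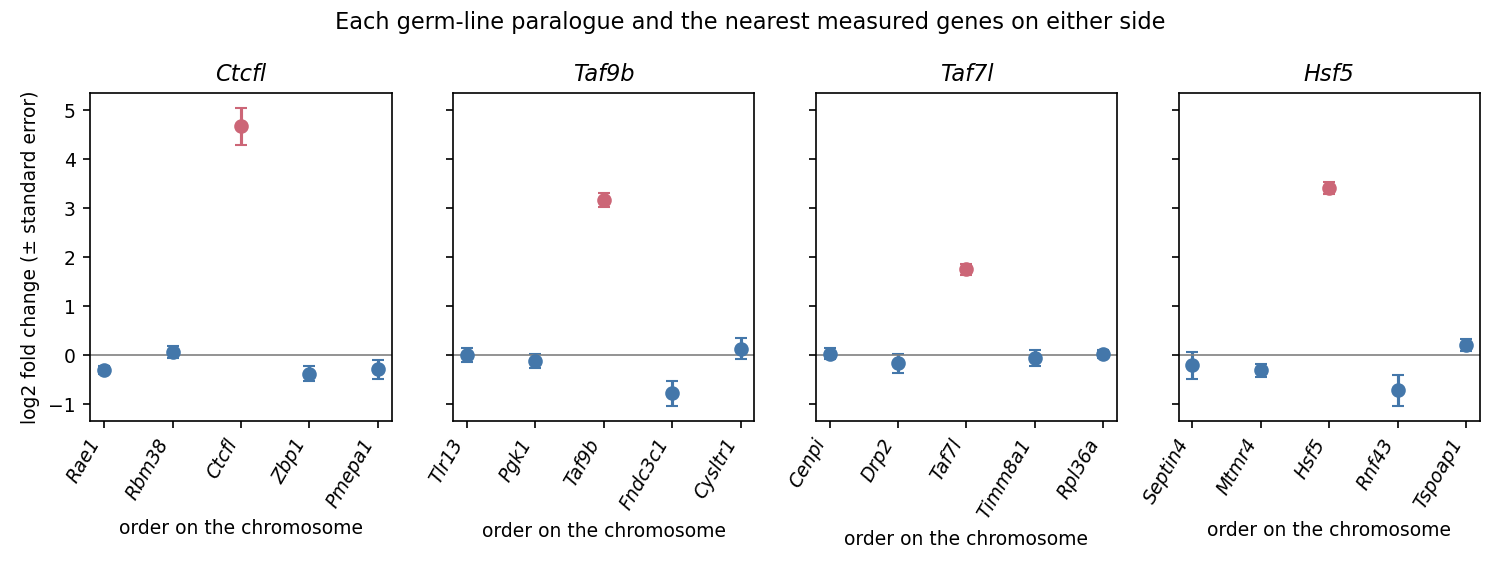
Log2 fold change (*L3mbtl2*-KD minus control, ± 1 standard error) of each germ-line paralogue (red) and of the 2 nearest tested genes on either side (blue), in the order of the genes on the chromosome and not to scale. In each panel the paralogue stands above all 4 neighbours, which lie between -0.78 and 0.21 over all panels.

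Some genes followed the paralogues closely over the arrays. Likeness was measured as the root mean square difference of log2 intensities over the 8 arrays, after each gene was centred on its control mean, among 13182 genes. For *Taf9b* the nearest were *Prr19* (0.17), *Tdrkh* (0.22) and *Hsf5* itself (0.26), and for *Hsf5* they were *Tdrkh* (0.23), *Taf9b* (0.26) and *Zcwpw1* (0.29). This distance depends largely on the size of the change, on which the paralogues were selected. For *Taf7l* they were *Xlr4b* (0.11), *H2bc4* (0.12) and *Serf1* (0.13). For *Ctcfl* they were *Spaca1* (0.60), *Zcwpw1* (0.80) and *Xlr* (0.95), but no control array had *Spaca1* or *Xlr* above background, so the distances of these 2 genes are uncertain.

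The other genes of the pathways of the paralogues were then counted, with limma adjusted p for each. Of 14 further CTCF and cohesin loop factors, limma called 0, near the shares of 2.49% and 3.21% over all genes, with a median log2 fold change of -0.05 against -0.01 over all genes tested. *Yy1* had the largest rise (0.13) and *Maz* the largest fall (-0.53), and at an unadjusted p under 0.05 there was only *Stag2*, a cohesin subunit (-0.43, standard error 0.10, adjusted p = 0.022, under 2-fold). Of the 2 genes described as targets of CTCFL in spermatocytes, both *Gal3st1* and *Prss50* were called higher, against 2.49% of all genes, and a difference from the loop factors was not tested. This list was chosen with earlier results of these data known, so nothing is read from the count. Whether CTCFL has a part in the changes of these 2 genes was not tested. *Gal3st1*, a sulfotransferase of germ cell glycolipids, was at -3.04, -2.85, -2.89 and -3.22 in control ESCs and at -1.79, -1.85, -1.76 and -1.53 in *L3mbtl2*-KD ESCs (a rise of 1.27, standard error 0.11, limma adjusted p = 0.00042). *Prss50*, a testis protease, had a log2 fold change of 1.08 on both of its probes (standard errors 0.17 and 0.18, limma adjusted p = 0.0049 and 0.0061). All 4 *L3mbtl2*-KD samples lay above all control samples for both genes. *Gal3st1* was under 2-fold with normexp background correction (0.95), and *Prss50* was under 2-fold on both probes without *L3mbtl2*-KD replicate 4 (0.95 and 0.94).

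The complexes of *Taf9b* and *Taf7l* were counted next. Of 12 other TFIID subunits tested, limma called 0, with a median log2 fold change of 0.33, and of 17 other SAGA subunits it called 0, with a median of 0.04. These counts are near the shares of 2.49% and 3.21% over all genes. No subunit was past 2-fold at an unadjusted p under 0.05, and 9 of TFIID and 6 of SAGA were at such a p with smaller changes. The shares over all genes are for 2-fold changes at an adjusted p, so nothing is read from the counts of 9 and 6. At an adjusted p under 0.05 and any size of change, 6 subunits of TFIID were higher and 1 lower, and 1 of SAGA was higher and 1 lower. These counts have no share over all genes beside them either, and nothing is read from them. The SAGA subunit counted lower was *Eny2*, on its dimmest probe only (-0.43, limma adjusted p = 0.034). Its brighter probes were at 0.15 and 0.06, so its probes disagreed. *Taf12*, shared by both complexes, had the largest fitted rise (0.82, adjusted p = 0.0037), and *Taf8* of TFIID (-0.63, adjusted p = 0.014) and *Kat2b* of SAGA (-0.46, adjusted p = 0.096) had the largest fitted falls. The changes of *Taf9b* (3.17) and *Taf7l* (1.75) were outside these ranges and those of *Taf9* and *Taf7* inside, which the selection of the genes on this contrast brings about by itself.

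Among 6 other germ-line forms of the transcription machinery, 4 were tested and 3 were called higher, against 2.49% of all genes, with a median log2 fold change of 0.90. With normexp background correction only *Taf7l2* of these was called. This list too was chosen with earlier results of these data known, so nothing is read from the count. *Taf7l2*, a further relative of *Taf7l*, was at -3.05, -3.53, -4.15 and -4.42 in control ESCs and at -1.04, -1.75, -1.53 and -1.30 in *L3mbtl2*-KD ESCs, with no overlap (a rise of 2.38, standard error 0.30, limma adjusted p = 0.0016; 1.59 with normexp background correction). Its second probe, dim on every control array, was at least 2.42-fold higher, and its log2 fold change under normexp was 0.73. For this bound, each array of the dim group was given the weakest signal that still passed as well above background there, unless the probe itself was brighter. *Gtf2a1l*, a germ cell form of the large TFIIA subunit, rose by 1.14 (standard error 0.21, adjusted p = 0.0078, higher in 4 of 4 samples). Without *L3mbtl2*-KD replicate 1 it was no longer called, nor was it with normexp background correction (0.89). *Brdt*, a testis bromodomain protein, was called on 1 probe (1.63, standard error 0.18, adjusted p = 0.00096; under normexp 0.87) and not on its brighter probe (0.26, adjusted p = 0.25), so its probes disagreed. *Tbpl1* was under 2-fold (0.67, adjusted p = 0.0054), and *Taf4b* and *Tbpl2* were not above background on enough arrays to be tested.

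For the loop factors, TFIID, SAGA and the other heat shock factors, the unadjusted one-way test past 2-fold also called 0. Of the 4 other genes of the heat shock factor list, *Hsf4* (0.46, adjusted p = 0.11) and *Hsf2bp*, which encodes a binding partner of HSF2 (-0.25, adjusted p = 0.37), were tested and neither was called by limma. One of these, *Hsf4*, was at an unadjusted p under 0.05, while *Hsf3* and *Hsfy2* were not well above background on any array. Among the heat shock protein genes, which HSF1 is known to activate, 18 of 20 were tested, with a median log2 fold change of 0.14, and 1 was called higher and 2 lower, against 2.49% and 3.21% of all genes. At an adjusted p under 0.05 and any size of change there were 7 higher and 3 lower. The shares over all genes are for 2-fold changes, so nothing is read from the counts of 7 and 3. *Hspa1a*, the inducible HSP70, rose by 1.59 (standard error 0.37, limma adjusted p = 0.021, higher in 4 of 4 samples), although its adjusted p ran from 0.0028 to 0.33 over the alternatives and it was not called without control replicate 3, without *L3mbtl2*-KD replicate 4, with no filter on dim probes, within either slide alone or by the adjusted one-way test. With normexp background correction the rise was 1.01. *Hspb8*, a small heat shock protein, had a log2 fold change of -1.41 (standard error 0.29, limma adjusted p = 0.014, lower in 4 of 4 samples). *Cryab*, another small heat shock protein, was called lower on a probe that was dim on every *L3mbtl2*-KD array (at least 1.84-fold lower; under normexp -0.28), so that call rests on values near background, and it was under 2-fold on its brighter probe (-0.65).

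**Figure D4:**
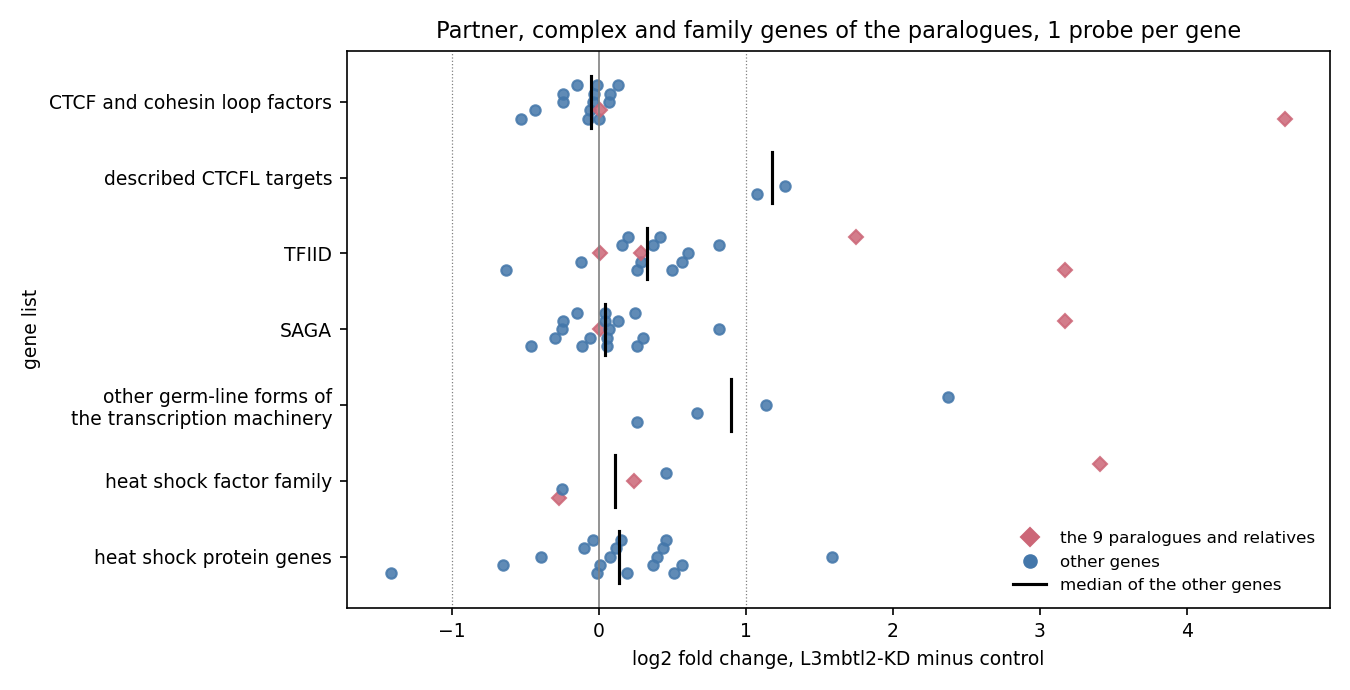
Log2 fold change (*L3mbtl2*-KD minus control) of every tested gene in 7 lists of partners, complexes and families of the paralogues, with 1 probe per gene; diamonds are the 9 paralogues and relatives, circles the other genes, black lines the median of the circles, and dotted lines 2-fold changes. *Ctcfl*, *Taf9b*, *Taf7l* and *Hsf5* lie to the right of all circles in their own lists, where the medians are -0.05 (loop factors), 0.33 (TFIID), 0.04 (SAGA) and 0.11 (heat shock factors).

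Markers of some other cell types were summed beside the paralogues. Levels are summed over the markers of a list on the linear scale, in units of the 75th percentile of each array. A marker is said to have risen or fallen only where limma called it, against 2.49% of all genes called higher and 3.21% lower. The lists were chosen with earlier results of these data known, so nothing is read from the counts. Of the feeder fibroblast markers, 11 of 14 were tested, and 6 fell (*Col1a1*, *Col1a2*, *Col3a1*, *Dcn*, *Acta2* and *Thbs1*) and *Loxl1* rose, and the sum was 14.2 to 20.1 in control and 6.87 to 9.54 in *L3mbtl2*-KD ESCs, with *Vim* brightest and *Lum*, *Postn* and *Fap* dim on all arrays. Of 8 primitive endoderm markers 5 fell (*Sox17*, *Dab2*, *Pdgfra*, *Foxa2* and *Lama1*, the brightest), with a sum of 12.7 to 16.2 in control and 2.95 to 5.50 in *L3mbtl2*-KD ESCs. Both sums were thus lower in every *L3mbtl2*-KD sample, while the paralogues were higher. Each sum rests largely on its brightest marker and does not stand for every gene of the list. Among markers that changed less than 2-fold, *Gata4* (-0.92), *Thy1* (-0.86) and *Vim* (-0.79) were lower, while *Fbn1* (0.16) and *Gata6* (0.06) were not. The lists given here are not all that were measured. The sum of a further list of markers of another cell state, not printed, was higher in every *L3mbtl2*-KD sample, as the paralogues were. Of 8 germ cell markers 4 rose (*Ddx4*, *Dazl*, *Dppa3* and *Mael*, the brightest), with a sum of 15.1 to 20.1 in control and 39.7 to 44.2 in *L3mbtl2*-KD ESCs, while *Prdm1* of the same list was at -1.27 and was not called. This count and this sum include *Ddx4*, whose reporter was used for the sort, so they are not independent of the sort. The ESC markers, of which 0 of 10 were called in limma (4 at an unadjusted p under 0.05, with *Nanog* at -1.32 past 2-fold), overlapped between the groups at 325 to 348 and 312 to 353, with *Dppa5a* brightest. For the later stages of spermatogenesis, in which some of the paralogues are known, the sums overlapped as well. Of 5 spermatocyte markers 3 were tested, *Sycp1* rose and *Hormad1*, the brightest, fell (1.18 to 1.69 against 1.27 to 1.60; *Spo11* dim on all arrays). Of 8 post-meiotic and spermatid markers 3 were tested and 0 called in limma, also without adjustment (0.324 to 0.535 against 0.395 to 0.459; *Ldhc* brightest, and *Acrv1*, *Odf1* and *Pgk2* dim on all arrays). The part that any of these cell types has in the changes of the paralogues was not tested.

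The way the arrays were processed moved the paralogues by amounts that were small beside their changes, except for normexp background correction. The log2 fold change ran from 3.44 to 5.09 for *Ctcfl*, from 2.54 to 3.27 for *Taf9b*, from 1.63 to 1.87 for *Taf7l* and from 3.12 to 3.63 for *Hsf5* over the 18 alternatives. The relatives stayed between -0.31 and 0.35 over the same alternatives. With each sample left out in turn, *Ctcfl* lay between 4.50 and 4.99, highest without control replicate 1.

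**Figure D5:**
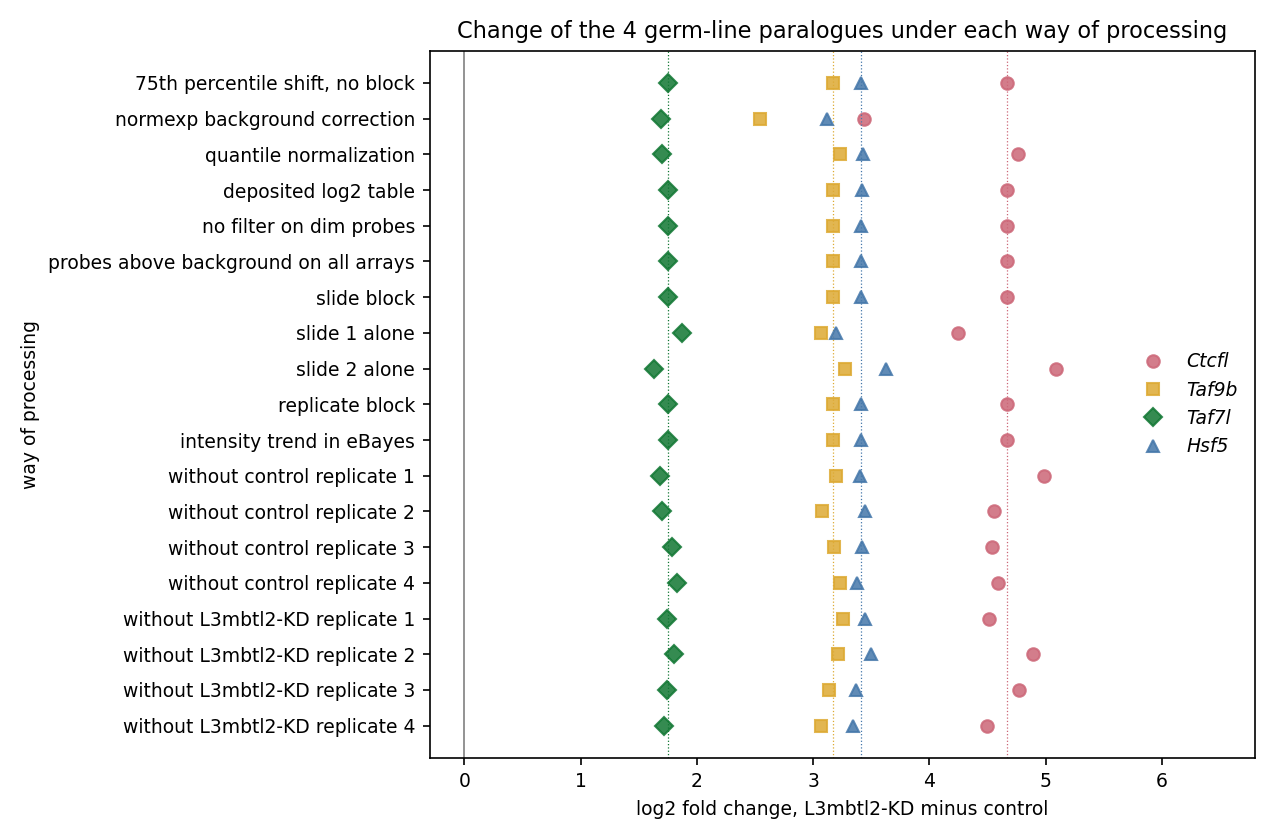
Log2 fold change (*L3mbtl2*-KD minus control) of the 4 germ-line paralogues under the shift to the 75th percentile and under 18 alternative ways of processing; dotted lines mark the first of these. *Ctcfl* has the widest range, from 3.44 with normexp background correction to 5.09 within slide 2, and every value lies above 1.63 or at it.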

How the data were processed

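Gene expression was measured on Agilent mouse arrays in 4 *L3mbtl2*-KD and 4 control samples of VV3 ESCs. The authors deposited the intensity of each spot after background subtraction by Feature Extraction 10.7.3.1, and a table of log2 values, which matched a 75th percentile shift of the intensities less each probe's median (lowest correlation of an array 0.9995). Here log2 intensity minus the array's 75th percentile was used, without control spots and outlier flags, and spots of a probe were averaged. Of 39429 probes, 26055 were named through RefSeq (GRCm38.p6, used for names, neighbours and promoters). The 23525 probes that passed the scanner's background flag throughout 1 or both groups were fitted with lmFit and eBayes of limma 3.58.1 (R 4.3.3), tried first on simulated data, with Benjamini-Hochberg adjustment over all of them. The brightest probe stands for a gene. L3mbtl2 and Ddx4 also had exact permutation tests, which did not use the replicate numbers. With the replicate block, the limma adjusted p was 0.0017 for L3mbtl2 and 0.00048 for Ddx4. Nothing is read from the p of Ddx4, whose reporter was used for the sort.

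The members and lists were chosen with earlier results of these data known. Named genes are all 9 members, called genes of each pathway list (up to 5, otherwise the largest rise and fall), 2 neighbours a side, the 3 most alike genes, and the called and brightest markers.

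Same-numbered samples deviated together from their group means (correlations 0.38 to 0.58, against -0.44 to 0.25 for different numbers), so the numbers pair the samples, as read from the values. Alternatives were normexp (planned on mean, run on median intensities), quantile normalization, the deposited table, other filters on dim probes, slide or replicate blocks, each slide alone, an intensity trend, the legends' one-way test, a 1.5-fold threshold, 1 probe per gene and leaving out each sample.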

Additional observations from a re-analysis of the deposited data

Results flagged for a closer look

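In groups of 4 samples, a sample was looked at again when its gap to the nearest other sample took up more of the range of the group than Dixon's 95% value allows. Over 54 probes this held in 4 groups, where chance gives about 5.35, or 1 in 20 of the groups looked at.

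Among the paralogues only *Ctcfl* was concerned: control replicate 1 was at -3.32 on the log2 scale, against -4.68 to -4.51 in the other control samples (ratio 0.871). Without it the log2 fold change of *Ctcfl* was 4.99 in place of 4.67. *Brdt* was at -3.80 in *L3mbtl2*-KD replicate 2 against -3.25 to -3.18 in the others (ratio 0.888), on the probe that was called. *Rpl36a*, a neighbour of *Taf7l*, was at 6.09 in *L3mbtl2*-KD replicate 1 against 6.21 to 6.22 (ratio 0.883). *Xlr*, one of the genes most like *Ctcfl*, was at -2.21 in *L3mbtl2*-KD replicate 4 against -2.50 to -2.47 (ratio 0.905). The 4 groups lie in 4 different samples, and the cause of these values was not tested.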

How the results depend on the processing

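All alternatives were planned. The 4 germ-line paralogues kept their direction under the 18 alternatives that give log2 values, and 4 of 4 were called higher under every alternative except slide 1 alone, from which nothing is read, as they were selected on this contrast. Within slide 1 alone 0 genes were called higher and 0 lower, 0 of the paralogues and 0 of the other list genes, with 2 arrays a group, while slide 2 alone, with as many arrays, called 342 higher and 406 lower; the cause was not tested. The relatives were never called (0 of 5). Normexp background correction adds an offset, and under it the log2 fold change was 3.44 for *Ctcfl*, 2.54 for *Taf9b* and 3.12 for *Hsf5*, and the differences were 3.43 (*Ctcfl* minus *Ctcf*), 2.45 (*Taf9b* minus *Taf9*), 2.88 (*Hsf5* minus *Hsf1*) and 3.36 (*Hsf5* minus *Hsf2*). It called 194 genes higher in place of 340 and 159 lower in place of 438, 55.0% higher in place of 43.7%, and 3 other list genes higher in place of 6 and 1 lower in place of 2; the cause was not tested. Within slides 1 and 2, *Hsf5* was at 3.20 and 3.63, *Hsf5* minus *Hsf1* at 2.97 and 3.37, and *Hsf5* minus *Hsf2* at 3.42 and 3.94; the cause was not tested. Probes above background on all arrays gave 290 genes lower, since fewer were tested, and 1 list gene lower, as did quantile normalization and 1 probe per gene. Quantile normalization called 398 genes higher and 355 lower, 52.9% higher in place of 43.7%, so the balance of the directions depends on the normalization. A 1.5-fold threshold, which must give more, called 700 genes higher and 1014 lower, and 10 list genes higher. With the replicate block, which respects the pairing, 358 genes were called higher and 469 lower, with 4 of 4 paralogues and 6 list genes higher and 2 lower as before; 339 and 434 of the genes called were the same as without the block. No paralogue or relative was dim in a whole group, so no bound was needed for them.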
